A study of Mus musculus with 10 samples.

Results

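Macrophages take up arginine and share it between enzymes that lead to different products. Nitric oxide synthase turns it into nitric oxide and citrulline, whereas arginase splits it into urea and ornithine, and ornithine is the starting point of proline and of the polyamines putrescine, spermidine and spermine. In mouse macrophages a high level of the arginase gene Arg1 is a classical sign of activation by IL4, and a high level of the inducible nitric oxide synthase gene Nos2 a classical sign of activation by IFNγ. The genes described here are 10 enzymes and transporters of this route, chosen by name with earlier results of these data known. They are the arginases Arg1 and Arg2, the synthase Nos2 and the cationic amino acid transporters Slc7a1 and Slc7a2. The others are the citrulline recycling enzymes Ass1 and Asl, and Odc1, Oat and Sat1, which handle ornithine and polyamines. Of these 10, 9 were matched to 1 probe set each among the 22206 on the array, and Ass1 was not matched.

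The RNA came from bone marrow-derived macrophages (BMDMΦs) of male C57Bl/6J mice 8 to 12 weeks old, grown with L929-conditioned medium as a source of macrophage colony-stimulating factor. The BMDMΦs were kept for 48 h in complete medium (not stimulated), in conditioned medium (CM) of Snai1 wild-type or Snai1 knockout cancer-associated fibroblasts (WT CAF CM and KO CAF CM), or were given IL4 at 10 ng/mL or IFNγ at 100 units/mL. The CAFs came from mammary tumors of the PyMT mouse model and were starved of serum for 24 h to make the CM, while the controls had complete medium, so the medium itself and what CAFs released into it cannot be told apart against that control. The sample descriptions write wild-type and Snai1 knockout beside the macrophages, whereas the titles and the study's methods assign both to the CAFs, and the latter reading is used. There were 2 Clariom S arrays for each of the 5 conditions, called replicates 1 and 2 after a prefix that their titles share. What that prefix stands for is not stated, so the spread behind every p-value is that of these arrays and may be technical.

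Values are log2 signals, so that 1 unit is a 2-fold difference. A gene is said to rise or fall when its adjusted limma p-value, from a fit of all 10 arrays, was under 0.05. The adjustment was that of Benjamini and Hochberg over the 22206 probe sets. Differences are given in log2 units, many with their standard error (SE, n = 2 against 2). The SE of a gene comes from 1 spread pooled over all 5 conditions, so it is the same in every comparison. For Arg1, Slc7a2 and Nos2 that spread includes a wide distance between the WT CAF CM arrays. Their SEs and intervals in other comparisons thus do not show the spread of the arrays compared. Absence or presence was not called, so low signals and silent genes cannot be told apart. Signals of different genes are not set against each other, because probe sets differ in brightness. In bulk RNA fewer cells of a type and less RNA per cell cannot be told apart.

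The cells carried the macrophage list throughout, with a summed log2 signal of 19.02 to 19.8 on the 10 arrays over 7 measured genes, led by Lyz2. That sum follows its brightest genes, and single genes moved. Against not stimulated cells 3 rose and 0 fell with WT CAF CM, and 2 rose and 1 fell with KO CAF CM. With IL4 0 rose and 3 fell, and with IFNγ 1 rose and 1 fell (shares of all probe sets are given below). Cd14 gave -3.58 with IL4 (SE 0.17, adjusted p = 4e-07) and -4.28 with IFNγ (SE 0.17, adjusted p = 3e-08). The fibroblast list stayed between 7.62 and 8.1 and the lymphocyte list between 7 and 7.44. Of the fibroblast genes only Pdgfrb passed in any comparison. It was 5.36 to 6.35 with WT CAF CM, above IL4 by 1.34 (SE 0.37, adjusted p = 0.038) and above IFNγ by 1.29 (SE 0.37, adjusted p = 0.044). Against not stimulated cells it gave 1.16 (adjusted p = 0.087). Outside macrophages the sums of 3 lists moved between conditions, each mostly with its widest-ranging gene. The neutrophil list ran from 8.52 to 13.03, but its other 6 genes without Mmp8 stayed between 7.25 and 7.71. The dendritic cell list reached 13.05 to 13.49 with IFNγ and stayed at 7.64 to 8 elsewhere, and without Clec9a it lay between 7.48 and 8.3 on all arrays. The list of mast cells, basophils and eosinophils ran from 7.15 to 10.5, and between 6.54 and 7.47 without Siglecf. A further dendritic cell gene, Xcr1, was 6.21 to 6.47 with IFNγ against 3.58 to 4.26 elsewhere and rose by 2.68 over not stimulated cells (adjusted p = 4.1e-06). Cd14, Pdgfrb, Clec9a and Xcr1 were named after their values were seen. The median signal of an array ranged from 5.57 to 5.71, and Pearson's r between replicates from 0.9936 to 0.9952.

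Promoter sequence was at hand in RefSeq (GRCm38.p6) for 5 of the 10 genes. The 250 bases before the start site are shown for the genes among them that rose or fell in at least 1 comparison: Slc7a1, which has 2 listed start sites, Odc1 and Sat1. They are written 5′ to 3′ along the gene, and capitals mark a match to 1 of 7 short motifs searched on both strands: the gamma-activated site TTCNNNGAA, the STAT6 site TTCNNNNGAA, the cAMP response element TGACGTCA, the E-box CACGTG, the AP-1 site TGANTCA, the C/EBP site TTGCNNAA and a loose NF-kB site GGGNNNNNCC.
Slc7a1, first start site, chr5:148399905-148400154, minus strand: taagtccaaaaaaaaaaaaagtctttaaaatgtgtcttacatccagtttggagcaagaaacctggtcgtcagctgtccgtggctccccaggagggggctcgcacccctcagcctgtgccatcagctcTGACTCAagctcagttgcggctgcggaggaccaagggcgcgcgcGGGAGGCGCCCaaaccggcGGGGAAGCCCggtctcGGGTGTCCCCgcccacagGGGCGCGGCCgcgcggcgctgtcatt
Slc7a1, second start site, chr5:148392816-148393065, minus strand: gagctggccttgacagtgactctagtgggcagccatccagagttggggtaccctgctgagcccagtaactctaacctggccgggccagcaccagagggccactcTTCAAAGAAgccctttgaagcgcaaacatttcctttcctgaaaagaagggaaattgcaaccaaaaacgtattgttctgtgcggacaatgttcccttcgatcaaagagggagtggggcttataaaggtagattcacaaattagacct
Odc1, chr12:17544623-17544872, plus strand: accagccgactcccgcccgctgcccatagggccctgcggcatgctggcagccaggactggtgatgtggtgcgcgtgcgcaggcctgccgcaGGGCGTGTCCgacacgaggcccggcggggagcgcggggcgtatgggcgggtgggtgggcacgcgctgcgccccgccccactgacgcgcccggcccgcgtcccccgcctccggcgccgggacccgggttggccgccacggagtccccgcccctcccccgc
Sat1, chrX:155216450-155216699, minus strand: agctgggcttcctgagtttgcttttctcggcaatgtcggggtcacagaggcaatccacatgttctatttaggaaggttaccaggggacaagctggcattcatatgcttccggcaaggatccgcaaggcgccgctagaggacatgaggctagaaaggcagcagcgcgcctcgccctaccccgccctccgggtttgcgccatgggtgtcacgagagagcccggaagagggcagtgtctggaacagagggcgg

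The upstream Slc7a1 window held an AP-1 match at 123 to 117 bases before the start, a motif found in 6.75% of the 32851 promoter windows of this length, and several NF-kB matches, of which 2 overlap each other. The second Slc7a1 window held a gamma-activated site match at 146 to 138 bases before the start, present in 7.02% of all windows. Odc1 held 1 NF-kB match at 159 to 150 bases, and that loose motif was found in 45.8% of all windows. In the Sat1 window these letters did not occur. The windows of Ass1 and Oat were searched as well, and Oat held none of the 7 while Ass1 held an E-box match and NF-kB matches. The STAT6 letters occurred in 5.85%, the cAMP response element in 1.55%, the E-box in 6.02% and the C/EBP letters in 9.56% of all windows. A match describes letters in a window and was not tested as a site.

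**Figure D1:**
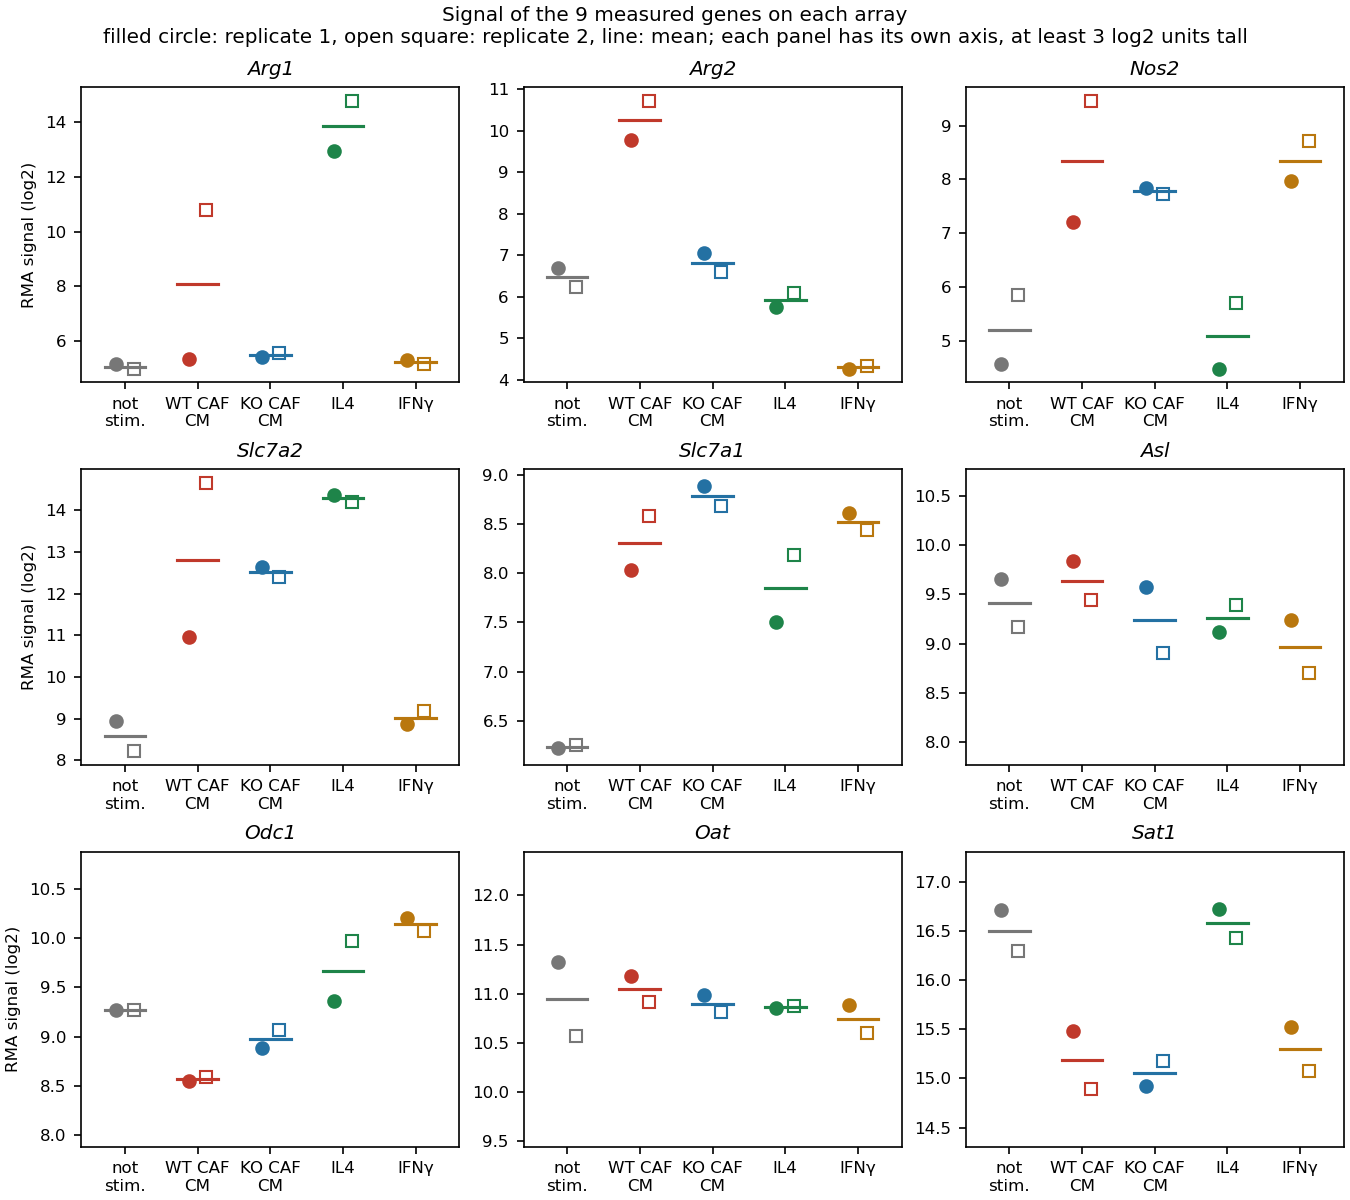
RMA signal (log2) of the 9 measured genes on each of the 10 arrays, by condition, with replicate 1 as a filled circle, replicate 2 as an open square and the mean as a line. Arg2 is highest on both WT CAF CM arrays, Arg1 on both IL4 arrays, and Arg1, Slc7a2 and Nos2 are far apart between the WT CAF CM arrays.

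Arg2, the mitochondrial arginase, was the only one of the 9 genes that passed the test between BMDMΦs given WT CAF CM and those given KO CAF CM. Odc1 gave -0.40 (SE 0.21, adjusted p = 0.56) and Slc7a1 -0.48 (SE 0.25, adjusted p = 0.56) for WT against KO CAF CM, and did not pass. The Arg2 signal was 9.78 and 10.73 with WT CAF CM and 7.05 and 6.60 with KO CAF CM. Not stimulated cells gave 6.70 and 6.24, IL4 gave 5.75 and 6.10, and IFNγ gave 4.26 and 4.34. Both WT CAF CM arrays thus lay above all the other 8, and both IFNγ arrays below. WT CAF CM exceeded KO CAF CM by 3.43 (SE 0.30, adjusted p = 0.00023), which is 10.8-fold, and not stimulated cells by 3.79 (SE 0.30, adjusted p = 1e-05), which is 13.8-fold. KO CAF CM differed from not stimulated cells by 0.36 (95% interval -0.30 to 1.01, adjusted p = 0.55). Arg2 fell with IFNγ, to signals below the array medians, with a difference of -2.17 (SE 0.30, adjusted p = 0.00047). IL4 gave -0.54 against not stimulated cells (95% interval -1.20 to 0.11, adjusted p = 0.44). In the order of condition means, WT CAF CM stood apart at the top and IFNγ at the bottom (adjusted p = 0.0031 below IL4). Between them KO CAF CM did not differ from not stimulated cells, nor did these from IL4. Leaving out any 1 array kept the difference of WT from KO CAF CM between 2.95 and 3.91, with the call in every case. The study had picked Arg1 and Arg2 on these same arrays, so their direction here is no independent evidence. It also reports that WT but not KO CAF CM raised both RNAs by quantitative PCR, after a shorter treatment. For the proteins it reports a western blot. Those experiments are not part of the values described here.

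Beside the Arg2 values, the summed neutrophil list was 12.9 to 13.03 with WT CAF CM, 10.38 to 10.42 with KO CAF CM, 11.14 to 11.75 in not stimulated cells, 11.1 to 11.41 with IL4 and 8.52 to 8.62 with IFNγ, which is the signal of Mmp8. For Mmp8 alone, WT CAF CM exceeded KO CAF CM by 2.73 (SE 0.23, adjusted p = 0.00018). The other 6 genes of that list summed to 7.36 to 7.56 with WT CAF CM and 7.25 to 7.58 with KO CAF CM. Mmp8 was left out of that sum because its range was the widest. Single signals of the 6 (Mpo, Elane, Ltf, Camp, Ngp and Cxcr2) were only 3.48 to 5.98 in these conditions. A flat sum of such dim genes cannot show whether neutrophils differed, and a part of neutrophils in the Arg2 result was not tested.

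Arg1, the cytosolic arginase, was high on both IL4 arrays, at 12.92 and 14.77, against 5.17 and 4.99 in not stimulated cells. With IFNγ it was 5.31 and 5.19, and KO CAF CM gave 5.44 and 5.56. With WT CAF CM the signals were 5.36 and 10.79: replicate 1 lay below both KO CAF CM arrays, and replicate 2 lay between these and the IL4 arrays. Arg1 rose with IL4 by 8.77 (SE 1.21, adjusted p = 0.0016). WT CAF CM differed from KO CAF CM by 2.58 (SE 1.21, 95% interval -0.08 to 5.23, adjusted p = 0.5) and from not stimulated cells by 3.0 (SE 1.21, adjusted p = 0.19). Without WT CAF CM replicate 1 the difference from KO CAF CM was 5.29, and without replicate 2 it was -0.14. Each of these values rests on a single WT CAF CM array. IL4 exceeded WT CAF CM by 5.77 (adjusted p = 0.0081), and below WT CAF CM no neighbouring conditions in the order of Arg1 means differed. With a trend in the variance and robust moderation, the adjusted p of the IL4 rise was 0.061.

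Slc7a2, the transporter CAT2, which brings arginine into activated macrophages, was high with IL4 and with both CAF CM. Its signal was 14.36 and 14.21 with IL4, 10.97 and 14.66 with WT CAF CM, and 12.64 and 12.41 with KO CAF CM. It was 8.94 and 8.22 in not stimulated cells and 8.87 and 9.18 with IFNγ. The arrays of IL4 and of both CAF CM all lay above those of the other conditions, a division made after the values were seen. The WT CAF CM arrays lay on either side of the KO CAF CM arrays. Slc7a2 rose by 5.70 with IL4 (SE 0.81, adjusted p = 0.0019), by 4.23 with WT CAF CM (SE 0.81, adjusted p = 0.0062) and by 3.94 with KO CAF CM (SE 0.81, adjusted p = 0.0059). With IFNγ the difference was 0.44 (95% interval -1.33 to 2.22, adjusted p = 0.83). WT against KO CAF CM gave 0.29 (95% interval -1.48 to 2.06, adjusted p = 0.96), 2.13 without WT CAF CM replicate 1 (adjusted p = 0.0087) and -1.55 without replicate 2 (adjusted p = 0.052). The rise with either CAF CM was no longer called without not stimulated replicate 2, at 3.87 (adjusted p = 0.058) for WT and 3.58 (adjusted p = 0.05) for KO CAF CM. With trend and robust moderation the IL4, WT and KO CAF CM rises had adjusted p of 0.062, 0.098 and 0.088.

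Nos2, the inducible nitric oxide synthase, was raised by IFNγ and by both CAF CM. Its signal was 7.98 and 8.72 with IFNγ, 7.22 and 9.46 with WT CAF CM and 7.85 and 7.74 with KO CAF CM. Not stimulated cells gave 4.58 and 5.86, and IL4 gave 4.49 and 5.71. The lowest of the former 6 arrays lay above the highest of the latter 4, a division made after the values were seen. Against not stimulated cells Nos2 rose by 3.13 with IFNγ (SE 0.64, adjusted p = 0.0064), by 3.12 with WT CAF CM (SE 0.64, adjusted p = 0.0093) and by 2.58 with KO CAF CM (SE 0.64, adjusted p = 0.017). IL4 gave -0.12 (95% interval -1.52 to 1.28, adjusted p = 0.97). WT and KO CAF CM differed by 0.55 (95% interval -0.85 to 1.94, adjusted p = 0.88), which was -0.58 without WT CAF CM replicate 2. Each of these 3 rises was lost without not stimulated replicate 1, with adjusted p of 0.079 for IFNγ, 0.1 for WT CAF CM and 0.16 for KO CAF CM. The IFNγ rise was also lost without IFNγ replicate 2 (adjusted p = 0.068), the WT CAF CM rise without WT CAF CM replicate 2 (0.076) and the KO CAF CM rise without either KO CAF CM array (0.081 and 0.068). With trend and robust moderation the WT and KO CAF CM rises had adjusted p of 0.053 and 0.074. Of 5 measured genes of a list that responds to IFNγ, all 5 rose with IFNγ and 2 with IL4. With WT and with KO CAF CM 1 rose, Gbp2, by 2.75 and 3.73. All 5 were lower with either CAF CM than with IFNγ. How these genes relate to the Nos2 rise was not tested.

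Arg1, Slc7a2 and Nos2 were higher on WT CAF CM replicate 2 than on replicate 1 by 5.43, 3.69 and 2.24. Among all 22206 probe sets, 39 were over 4-fold apart between these arrays, and 6 to 14 in each other condition. Of these distances, those of Arg1, Slc7a2 and Nos2 ranked 2, 6 and 33, and of the 40 largest, 32 were higher on replicate 2. The largest, named after its value was seen, was that of Timp1, at 5.92. Arg2 differed by 0.95 between the same arrays, a distance that 487 probe sets reached. Of the list of genes that respond to IL4, named after their values were seen, Retnla was 3.75 and 4.04, Chil3 5.55 and 6.14 and Pdcd1lg2 5.33 and 5.06 on WT CAF CM replicates 1 and 2, against at least 13.67 for all 3 with IL4. Not stimulated cells gave 3.71 and 3.67 for Retnla, 5.98 and 6.99 for Chil3 and 5.64 and 5.25 for Pdcd1lg2. The array with the high Arg1 signal thus lay far below the IL4 arrays in these 3 genes. The list's remaining measured gene, the mannose receptor Mrc1, was 13.92 and 13.05 on WT CAF CM replicates 1 and 2, 10.21 and 11.32 with KO CAF CM, 14.62 and 14.65 in not stimulated cells and 16.81 and 16.93 with IL4. WT CAF CM exceeded KO CAF CM in Mrc1 by 2.72 (SE 0.39, adjusted p = 0.0056), and the array with the high Arg1 signal was the lower of the pair. Whether a difference between the cultures, the CM or the arrays moved with these genes was not tested.

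**Figure D2:**
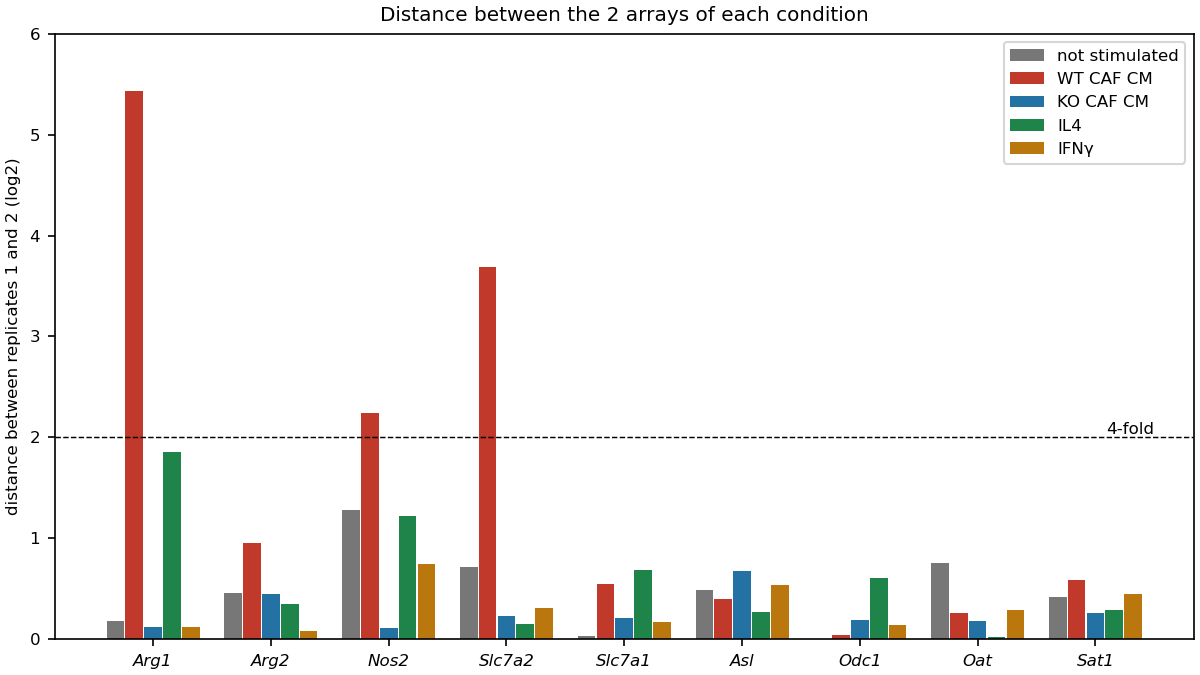
Distance in log2 units between replicates 1 and 2 of each condition, for each of the 9 genes. The 3 bars above the dashed line at 4-fold are Arg1, Nos2 and Slc7a2 with WT CAF CM, at 5.43, 2.24 and 3.69.

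Slc7a1, the transporter CAT1, which most cell types use for arginine uptake, rose under every stimulus. It was 6.22 and 6.25 in not stimulated cells, 8.03 and 8.58 with WT CAF CM, 8.89 and 8.68 under KO CAF CM, 7.50 and 8.19 with IL4 and 8.61 and 8.44 with IFNγ. All 8 stimulated arrays lay above both unstimulated ones. The rise was 2.55 with KO CAF CM (SE 0.25, adjusted p = 3.8e-05), 2.29 with IFNγ (SE 0.25, adjusted p = 9.1e-05), 2.07 with WT CAF CM (SE 0.25, adjusted p = 0.00029) and 1.61 with IL4 (SE 0.25, adjusted p = 0.0039), or 5.86-, 4.89-, 4.2- and 3.05-fold. WT and KO CAF CM differed by -0.48 (95% interval -1.04 to 0.08, adjusted p = 0.56). In the order KO CAF CM, IFNγ, WT CAF CM and IL4 no neighbours differed, while KO CAF CM exceeded IL4 by 0.94 (SE 0.25, adjusted p = 0.027). These 4 rises stayed called with every array left out in turn.

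Sat1, the acetyltransferase that marks spermidine and spermine for breakdown and export, fell with both CAF CM and with IFNγ. It was 16.71 and 16.29 in not stimulated cells and 16.72 and 16.43 with IL4, against 15.48 and 14.89 with WT CAF CM, 14.92 and 15.18 under KO CAF CM and 15.52 and 15.07 with IFNγ. These 2 groups of conditions did not overlap, but they were formed after the values were seen. The difference was -1.45 with KO CAF CM (SE 0.26, adjusted p = 0.0024), -1.31 with WT CAF CM (SE 0.26, adjusted p = 0.0071) and -1.20 with IFNγ (SE 0.26, adjusted p = 0.0083), or 2.73-, 2.49- and 2.31-fold lower. IL4 gave 0.08 (95% interval -0.49 to 0.64). WT and KO CAF CM differed by 0.13 (95% interval -0.43 to 0.70, adjusted p = 0.93). The falls with WT CAF CM and with IFNγ lost their call without not stimulated replicate 1 (adjusted p = 0.079 and 0.093) or without replicate 2 of the stimulated condition (0.084 and 0.095). Siglecf moved alongside, at 8.63 to 10.35 in not stimulated and IL4 cells and 5.27 to 6.31 in the other 3 conditions, and its part in the result was not tested.

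Odc1, ornithine decarboxylase, makes putrescine from ornithine and is the entry to the polyamines. It was 10.21 and 10.07 with IFNγ, 9.36 and 9.97 with IL4, 9.27 and 9.27 in not stimulated cells, 8.88 and 9.07 with KO CAF CM and 8.55 and 8.59 with WT CAF CM. The IFNγ arrays were the highest and the WT CAF CM arrays the lowest. Odc1 rose with IFNγ by 0.87 (SE 0.21, adjusted p = 0.02), a call that was lost without any single array of either group (adjusted p = 0.071 to 0.13). WT CAF CM gave -0.70 against not stimulated cells (SE 0.21, adjusted p = 0.073) and -0.40 against KO CAF CM (95% interval -0.88 to 0.07, adjusted p = 0.56). Without either IL4 array the first of these had an adjusted p of 0.038. No neighbours in the order of the condition means differed, while WT CAF CM lay 1.57 below IFNγ (adjusted p = 0.00037) and 1.09 below IL4 (adjusted p = 0.0052).

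Asl, argininosuccinate lyase, which returns citrulline carbon to arginine, and Oat, which leads ornithine towards proline and glutamate, did not pass the test in any of the 10 pairs of conditions. Asl lay between 8.70 and 9.84 on the 10 arrays and Oat between 10.57 and 11.32. The largest difference was that of Asl between WT CAF CM and IFNγ, at 0.67 (SE 0.28, 95% interval 0.05 to 1.29, adjusted p = 0.2). For WT against KO CAF CM the difference of Asl was 0.40 (95% interval -0.22 to 1.02) and that of Oat 0.15 (95% interval -0.39 to 0.69).

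**Figure D3:**
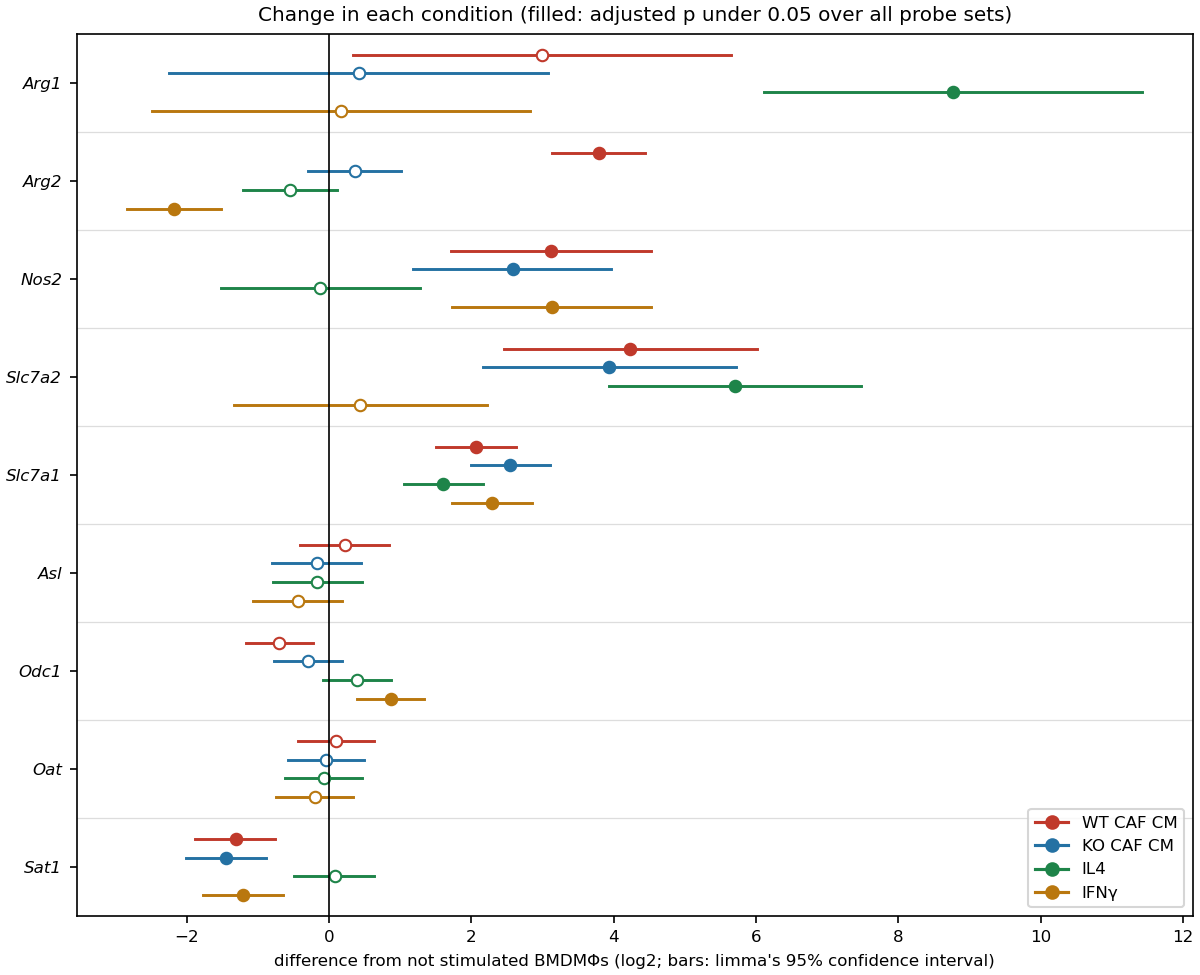
Difference of each condition from not stimulated BMDMΦs in log2 units, for the 9 genes, with limma's 95% confidence interval as a bar and a filled point where the adjusted p was under 0.05. Slc7a1 is above 0 in all 4 conditions, Sat1 below 0 in 3, and Arg2 lies above 0 with WT CAF CM at 3.79 and below it with IFNγ at -2.17.

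Set beside all probe sets, the share of these genes that passed the test was as follows. Between WT and KO CAF CM 1 of 9 genes rose and 0 fell, with 1.36% of all probe sets called (0.694% higher, 0.666% lower). The median of the 9 differences was 0.29 and that of all probe sets -0.01. With WT CAF CM 4 rose and 1 fell against not stimulated cells (8.56% of all called, 4.08% higher and 4.47% lower), with a median of 2.07 against -0.02. With KO CAF CM 3 rose and 1 fell (14.8% called, 6.83% higher and 8% lower), with a median of 0.36 against -0.01. With IL4 3 rose and 0 fell (4.04% called, 1.66% higher and 2.38% lower), with a median of 0.08 against 0. With IFNγ 3 rose and 2 fell (12.1% called, 5.38% higher and 6.68% lower), with a median of 0.17 against -0.01. The last 4 comparisons share the not stimulated arrays, so their values are not independent of each other. The genes were chosen with earlier results of these data known. The shares here and below therefore do not test whether this route changed more than other genes.

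The cytokines differed from each other in 5 of the 9 genes, where 12% of all probe sets were called (5.83% higher and 6.2% lower with IL4). IL4 exceeded IFNγ in Arg1 by 8.60 (adjusted p = 0.00044), Slc7a2 by 5.26 (0.00085), Arg2 by 1.62 (0.0031) and Sat1 by 1.28 (0.0053). Nos2 was lower with IL4 than with IFNγ, a difference of -3.25 (adjusted p = 0.0047), and as its IL4 signals lay near or below the array medians, no fold is given. The Nos2 and Sat1 calls were lost without IL4 replicate 1 (adjusted p = 0.062 and 0.056) or without IFNγ replicate 2 (0.054 and 0.068). Slc7a1 gave -0.68 (adjusted p = 0.13), which was -1.02 without IL4 replicate 2.

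Against the cytokines, WT CAF CM differed from IL4 in 5 of the 9 genes (11% of all probe sets called) and from IFNγ in 3 (11.6%), and KO CAF CM in 4 (14.8%) and 3 (14.1%). Compared with IL4, Arg1 was lower with WT CAF CM by -5.77 and with KO CAF CM by -8.35. Nos2 was higher by 3.24 and 2.70, and Sat1 lower by -1.39 and -1.53. Arg2 was higher with WT CAF CM by 4.33 (adjusted p = 2.1e-06), and Slc7a1 with KO CAF CM by 0.94 (adjusted p = 0.027). Compared with IFNγ, Slc7a2 was higher by 3.79 and 3.50, Arg2 by 5.96 and 2.53, and Odc1 was lower by -1.57 and -1.17. Nos2 differed from IFNγ by -0.01 with WT CAF CM (95% interval -1.41 to 1.39) and by -0.56 with KO CAF CM (95% interval -1.95 to 0.84).

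**Figure D4:**
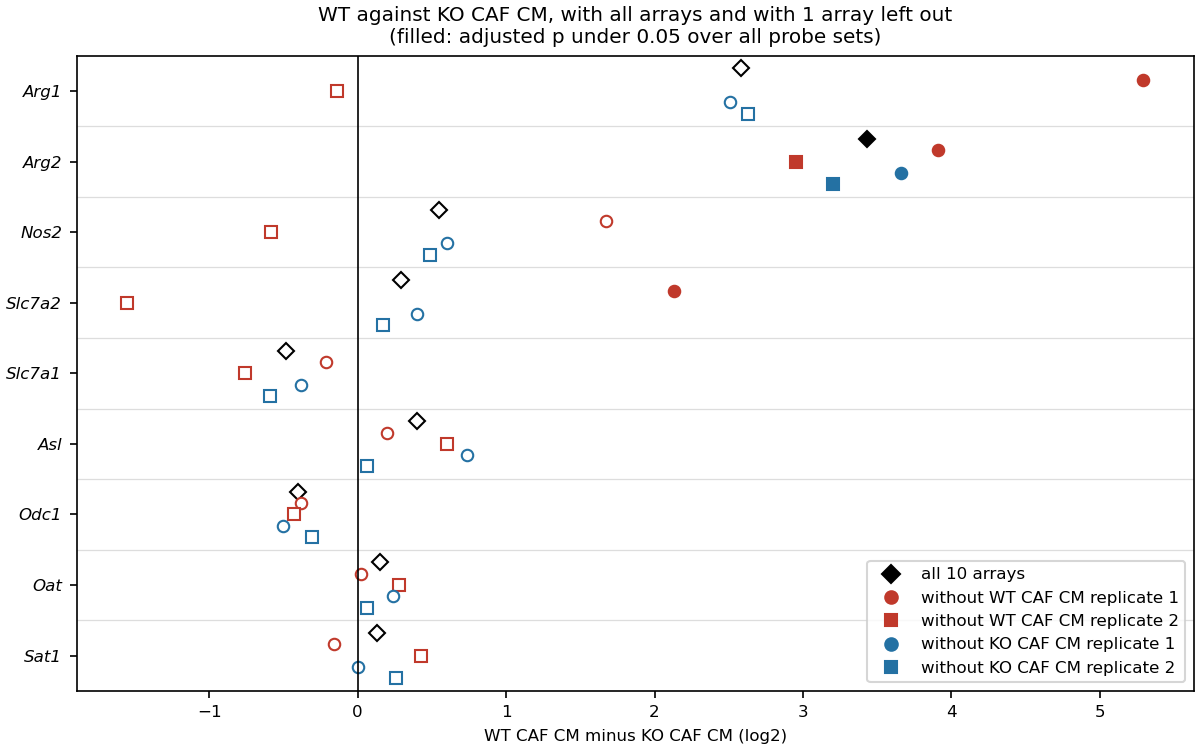
Difference of WT from KO CAF CM in log2 units for the 9 genes, with all 10 arrays (diamonds) and with 1 WT (red) or KO (blue) CAF CM array left out, filled where the adjusted p was under 0.05. Arg2 stays between 2.95 and 3.91, whereas Arg1 runs from -0.14 to 5.29 and Slc7a2 from -1.55 to 2.13. With 1 array left out, the remaining array of that group was assumed to vary like the others.

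Around these genes 51 others of arginine transport, the urea cycle, nitric oxide, proline, polyamine, hypusine and creatine metabolism were measured, of 58 listed. Between WT and KO CAF CM 1 of the 51 passed the test, or 1.96%, close to the 1.36% of all probe sets. Amd2, a copy of the S-adenosylmethionine decarboxylase gene that supplies spermidine synthesis, was 9.70 and 9.58 with WT CAF CM and 10.56 and 10.67 with KO CAF CM, a difference of -0.97 (SE 0.18, adjusted p = 0.024). That call was lost when any 1 of these 4 arrays was left out. Amd2 is near-identical to Amd1, so its signal may be shared with that gene. Against not stimulated cells, where Amd2 was 8.90 and 8.84, it rose with both CAF CM, by 0.77 (adjusted p = 0.02) and 1.74 (adjusted p = 5.1e-05).

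With WT CAF CM 5 of the 51 rose and 4 fell, and with KO CAF CM 8 rose and 9 fell, a total of 17 that was 9 without KO CAF CM replicate 1 or not stimulated replicate 1 and 10 without not stimulated replicate 2. Gatm, the amidinotransferase that moves the amidino group of arginine onto glycine in the first step of creatine synthesis, moved in opposite directions under CAF CM and under the cytokines. It was 10.76 and 10.16 in not stimulated cells, 7.71 and 7.20 with WT CAF CM, 6.61 and 7.21 under KO CAF CM, 13.36 and 13.42 with IL4 and 14.08 and 13.74 with IFNγ. No 2 of the 3 sets (not stimulated, CAF CM, cytokines) overlapped, but these sets were formed after the values were seen. Gatm fell with WT CAF CM (-3.0, SE 0.27, adjusted p = 3.1e-05) and KO CAF CM (-3.55, adjusted p = 5.6e-06) and rose with IL4 (2.93, adjusted p = 0.00011) and IFNγ (3.45, adjusted p = 6.6e-06). WT CAF CM lay 5.93 below IL4 and 6.46 below IFNγ (adjusted p = 6.5e-08 and 2.6e-08).

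Slc25a13, the mitochondrial carrier that exports the aspartate needed to make argininosuccinate, was 10.03 and 10.04 in not stimulated cells, 6.86 and 6.70 with WT CAF CM and 7.48 and 6.90 with KO CAF CM. It fell by 3.25 with WT CAF CM (adjusted p = 4.1e-05), by 2.84 with KO CAF CM (7.2e-05) and by 1.57 with IFNγ (0.005), where it was 8.59 and 8.33. With IL4 it was 10.52 and 11.58. Of the carriers, Slc7a5, a transporter of large neutral amino acids, was 6.28 and 6.76 in not stimulated cells and rose with WT CAF CM (2.39), KO CAF CM (3.18) and IFNγ (2.21), with adjusted p of 0.00033, 2.5e-05 and 4e-04. Slc7a7, which exports arginine in exchange for neutral amino acids, was 11.76 and 11.60 in not stimulated cells, 13.09 and 13.42 with WT CAF CM, 13.19 and 13.31 under KO CAF CM and 10.13 and 9.79 with IL4. It rose with WT CAF CM by 1.58 (adjusted p = 0.00034) and with KO CAF CM by 1.57 (0.00022), and fell with IL4 by 1.72 (adjusted p = 0.00044). Gch1, the first enzyme of tetrahydrobiopterin synthesis and so of the cofactor of nitric oxide synthase, rose by 1.49 with WT CAF CM (adjusted p = 0.0017) and 2.1 with KO CAF CM (9.2e-05) and gave -0.58 with IFNγ, where Nos2 rose as well.

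The other genes at the ends of these comparisons were Nostrin, a trafficking partner of the endothelial synthase, which fell by 1.51 with WT CAF CM and by 0.97 with KO CAF CM, and Gamt, the second enzyme of creatine synthesis, which fell by 2.01 with KO CAF CM and gave -1.07 with WT CAF CM (adjusted p = 0.066). With IL4 1 of the 51 rose and 3 fell, the latter being the carriers Slc7a7, Slc7a6 (-1.40) and Slc7a8 (-0.91). With IFNγ 3 rose and 5 fell, with Aldh18a1, which makes the precursor of proline and ornithine from glutamate, at 1.88, and among those that fell the creatine transporter Slc6a8 at -1.77 (-1.14 and -1.56 with WT and KO CAF CM, both called) and the ornithine decarboxylase antizyme Oaz2 at -1.0. Between IL4 and IFNγ 6 were higher and 4 lower with IL4. Slc25a13 (2.59), Slc6a8 (1.82) and Qdpr, which regenerates tetrahydrobiopterin (1.5), led the higher ones, and Slc7a5 (-1.65), Slc7a7 (-1.55) and Aldh18a1 (-1.23) the lower ones. Against not stimulated cells the share of the 51 called was 17.6% for WT CAF CM, 33.3% for KO CAF CM, 7.84% for IL4 and 15.7% for IFNγ. It was 1.96% for WT against KO CAF CM and 19.6% for IL4 against IFNγ. The background shares are given above, and this list too was chosen with earlier results of these data known.

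**Figure D5:**
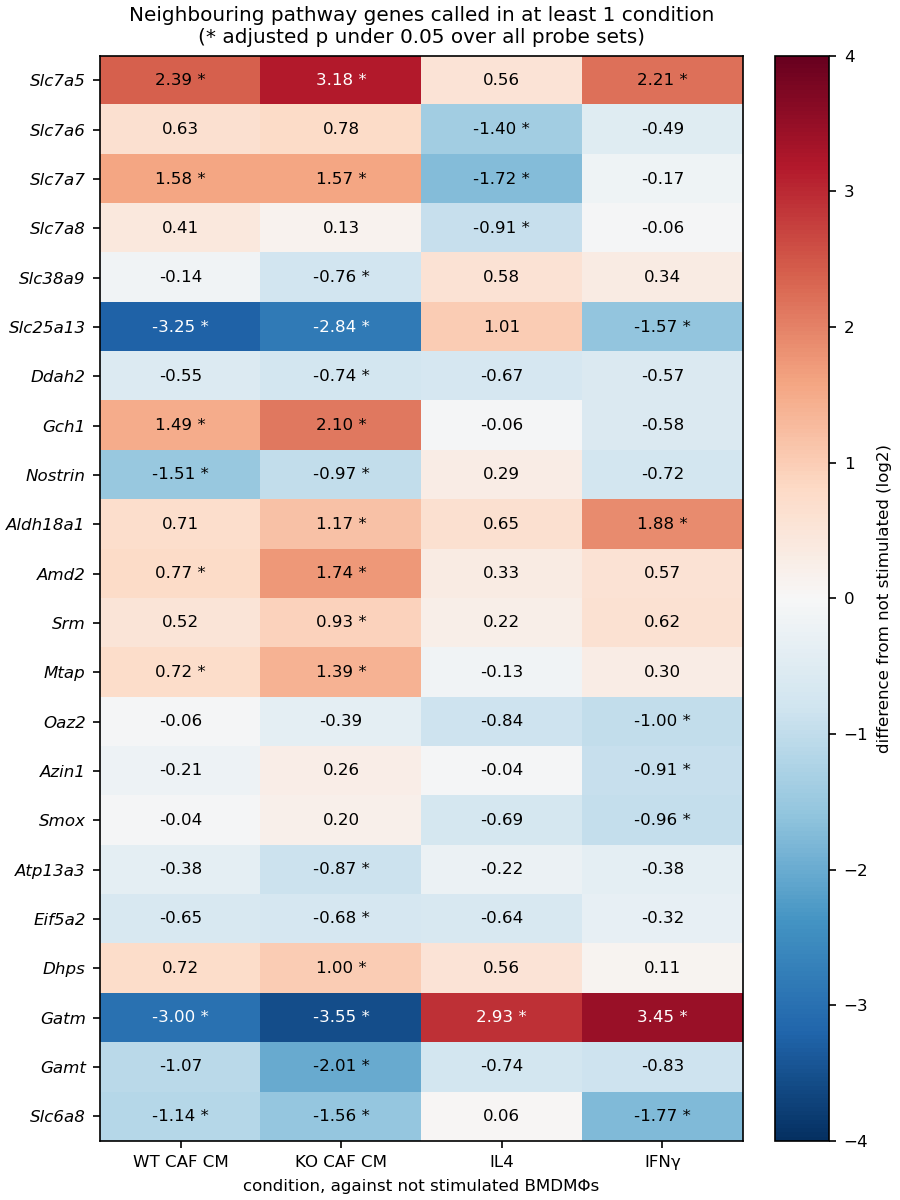
Difference from not stimulated BMDMΦs in log2 units (colour and number) of the 22 genes of the wider route that passed the test in at least 1 of 4 conditions, with a star where the adjusted p was under 0.05. Gatm is at -3.0 and -3.55 with WT and KO CAF CM and at 2.93 and 3.45 with IL4 and IFNγ.

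For each of the 9 genes the named probe sets with the most similar profile over the 10 arrays were taken, among those spanning at least 2 log2 units. The arrays fall into 5 conditions, so Pearson's r is given as a description. Arg2 ran with Cd33 (r = 0.996), Pdpn (0.967) and Serpinb8 (0.946). Cd33, an inhibitory sialic acid receptor that the study also picked on these arrays, was 12.14 and 12.92 with WT CAF CM, 8.78 and 8.63 under KO CAF CM, 8.39 and 8.22 in not stimulated cells, 7.48 and 7.57 with IL4 and 6.12 and 6.26 with IFNγ, the same order of condition means as Arg2. Arg1 ran with Nfil3 (0.95), Cish (0.924) and Fn1 (0.905), for which Spearman's rho was 0.806, 0.588 and 0.778. On WT CAF CM replicate 2, where Arg1 was 10.79, Cish was 3.65 and Fn1 5.18. With IL4 they were at least 5.32 and 10.45. Slc7a2 ran with Plekhg1 (0.936), F10 (0.922) and Septin11 (0.915), and Nos2 with Zdhhc2 (0.952), Pfkfb3 (0.952) and Bst1 (0.943).

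Slc7a1 ran with Mthfd2 (0.953), a mitochondrial folate enzyme, Pim1 (0.947) and Asns (0.94), asparagine synthetase. Mthfd2 was 8.01 and 8.23 in not stimulated cells and between 9.98 and 12.53 on the other 8 arrays. Odc1 ran with Slc23a2 (0.955), Serpinb6b (0.942) and Gng11 (0.939), and Sat1 with Slc36a2 (0.97), Sulf2 (0.969) and Lpin1 (0.959). For Asl and Oat, which varied by 1.14 and 0.75 over the arrays, the best values were 0.848 (Maoa) and 0.746 (Sowahc). By Spearman's rho the top 3 shared 0 genes with these for Arg1, Nos2 and Slc7a1, and 1 or 2 for the others. Slc7a2 was among the top 3 of Arg1 by rho (0.903).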

How the data were processed

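Clariom S mouse arrays were summarized by the authors with RMA, which corrects background, normalizes between arrays and gives 1 log2 signal per probe set. The deposited log2 signals were analysed unchanged (0 columns omitted). The processing notes name RMA and limma without versions. The genome build of the array's annotation is not given in the sources used here. Symbols came from a table of the platform, in which 19572 probe sets carry 1 symbol and 2634 none, and each named gene was taken on its brightest probe set (0 of the 9 had several).

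A mean per condition was fitted with limma 3.58.1 in R 4.3.3 to all 10 arrays (5 residual degrees of freedom, 6.43 from the empirical Bayes step), checked on simulated data, with Benjamini-Hochberg adjustment over all probe sets and a threshold of 0.05. The number of arrays limits the precision. Members and lists were chosen with earlier results of these data known. Named genes are all members, pathway genes called in WT against KO CAF CM, the 3 called genes with the largest change in each direction elsewhere, the 3 most like profiles per member and the brightest gene of a marker list. Motifs were searched in RefSeq promoters (GRCm38.p6). Alternatives were 33.3% of probe sets left out, a fit of the compared groups only, array weights, trend and robust moderation, a replicate block, median centring, quantile normalization, a Student's t-test, a threshold of at least 2-fold, and each array left out. Python 3.11.15 with matplotlib 3.10.9 drew the figures.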

Additional observations from a re-analysis of the deposited data

How the results depend on the processing

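The 6 comparisons recomputed under each alternative were WT against KO CAF CM, each condition against not stimulated cells, and IL4 against IFNγ. Differences that passed the test kept their direction throughout, with the call kept in 364 recomputations and lost in 27. Differences that had not passed kept direction and side of the threshold in 502, became called in 6 and turned direction in 19, each time with 1 array left out. With trend and robust moderation 3, 2 and 1 of the 9 genes passed for WT CAF CM, KO CAF CM and IL4 against not stimulated cells, where 5, 4 and 3 had passed. Student's t-test on the 4 arrays of a pair called 3 genes unadjusted for WT CAF CM and 3 for IFNγ, and 0 after Benjamini-Hochberg adjustment in any of the 6 comparisons, where it called only 2 to 13 probe sets in all. The cause was not tested. Over all probe sets, 104 were called for WT against KO CAF CM when only these groups were fitted, against 302, and unadjusted t-tests called 1554.

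Leaving out each array in turn, the genes called of the 9 ranged from 1 to 3 for WT against KO CAF CM, 3 to 6 for WT CAF CM, 2 to 5 for IFNγ and 3 to 6 for IL4 against IFNγ. Of the 51 genes of the wider route, 0 to 1, 6 to 10, 9 to 16, 2 to 4, 5 to 9 and 6 to 10 were called in the 6 comparisons, in the order WT against KO CAF CM, then WT, KO, IL4 and IFNγ against not stimulated cells, then IL4 against IFNγ. For WT against KO CAF CM the difference ranged from -0.14 to 5.29 for Arg1, -0.58 to 1.67 for Nos2, -1.55 to 2.13 for Slc7a2 and -0.16 to 0.43 for Sat1. Against not stimulated cells Asl ranged from -0.02 to 0.47 with WT CAF CM, -0.51 to 0.17 with KO CAF CM and -0.41 to 0.09 with IL4. Oat ranged from -0.27 to 0.48, -0.42 to 0.33 and -0.45 to 0.3 in these conditions, from -0.58 to 0.17 with IFNγ and from -0.02 to 0.27 for IL4 against IFNγ. With IL4 Nos2 ranged from -0.76 to 0.52 and Sat1 from -0.13 to 0.29. With 1 array of a group left, that array was assumed to vary like the others.

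Replicate numbers were checked for pairing: deviations of same-numbered arrays correlated between -0.049 and 0.194, 3 of the 10 pairs of conditions being over 0.1. What the shared title prefix marks is not stated, so the arrays were not treated as paired, and pairing cannot be settled from these values. With a replicate block 1 of the 9 genes was called for WT against KO CAF CM, with Arg2 at 3.43, and no call among the 9 genes changed, while of the wider route 5 instead of 4 genes were called for IL4 and 9 instead of 8 for IFNγ. All probe sets called rose from 302 to 406 for WT against KO CAF CM. Another probe set per gene was not run, because none of the 9 has several. Groups of 2 arrays are too small for a test of single outlying arrays.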
